A study of Homo sapiens with 6 samples.

Results

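Of the 29436 gene symbols counted, 38 HOX genes are described here, taken from the protein-coding genes whose symbol is HOXA, HOXB, HOXC or HOXD followed by a number alone, without antisense genes. HOX genes encode homeodomain transcription factors that give cells their position along the head-to-tail axis of the embryo. They lie in 4 clusters, HOXA on chromosome 7, HOXB on chromosome 17, HOXC on chromosome 12 and HOXD on chromosome 2, and the number in a gene's name is its paralogue group, which follows its place from the 3′ to the 5′ end of the cluster. Genes of the 3′ end are in general switched on earlier and further forward in the embryo than those of the 5′ end, and in blood development HOXA and HOXB genes, with partner proteins of the TALE class, are known for roles in stem and progenitor cells.

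The cells were H1, a long-established line of human embryonic stem cells, turned towards blood in co-culture with AGM-S3 stroma cells. The untreated group (n = 3) had no added agent, and the lipoic acid group (n = 3) had alpha lipoic acid, an antioxidant that also serves mitochondrial enzymes as a bound cofactor, at 100 µg/ml in the inducing medium. On day 8, hemogenic endothelial cells, the endothelium from which blood cells bud, were sorted in aliquots of 1000 cells as CD34+CD43-KDR+CD144+, and amplified polyA cDNA was sequenced. The series asks how lipoic acid raises the yield of blood progenitors from pluripotent cells, and all samples share the cell line, the stroma co-culture and the sort. The labels do not say whether replicates were separate cultures, so the p-values speak of the spread among these libraries, and that spread may be technical.

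Total counts ran from 30041494 to 41351951 per library. Over 99% of nonzero counts were even numbers in untreated replicate 1 and in all lipoic acid libraries, against 52.01% and 51.97% in untreated replicates 2 and 3, and in the former a count of 2 may be 1 fragment. Levels are given as CPM, a count divided by its library's total on a common scale, with totals adjusted by the trimmed mean of M values. Of the gate genes, CD34, KDR and CDH5 (CD144) were present in every library, with CD34 and CDH5 lower and KDR higher in lipoic acid, and SPN (CD43) had no count. Mitochondrial genes took 2.45 to 2.82% of counts in untreated and 4.39 to 5.02% in lipoic acid libraries, and with these genes removed the HOX calls were the same 5, with HOXB5 added (log2 fold change 0.23, adjusted p = 0.0488). In the edgeR quasi-likelihood test, 47.4% of the 13780 tested genes were called at a Benjamini-Hochberg adjusted p under 0.05 (24.2% rose and 23.3% fell with lipoic acid), and this share is the background for each count that follows.

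Most of the HOX signal came from HOXB, and HOXA9 and HOXA13 were higher in lipoic acid libraries. HOXB genes held 96.34% of the CPM of the 38 genes in untreated and 89.97% in lipoic acid libraries, while the share of HOXA was 1.82% and 8.72%. Summed over its 10 members, HOXA stood at 4.12, 2.96 and 4.65 CPM in untreated replicates 1 to 3 and at 23.2, 16.3 and 21.8 CPM in lipoic acid replicates 1 to 3. The summed HOXB level was 207 ± 4.75 and 211 ± 1.31 CPM (SD, n = 3 each). HOXC summed to 2.42 ± 0.390 and 2.29 ± 0.916 CPM, and HOXD to 1.52 ± 0.422 and 0.794 ± 0.234 CPM. In libraries of pooled cells, a rise in the number of cells that express a gene and a rise in RNA per cell cannot be told apart.

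Of the 38 genes, 14 had enough counts to be tested, 11 had no count in any library and 13 had some counts but too few. Among the 14 tested genes 3 rose (HOXA13, HOXA9 and HOXB6), 2 fell (HOXB7 and HOXD8) and 9 did not pass. Without untreated replicate 2, HOXB13 and HOXC6 were also called lower, while the call of HOXD8 was lost without any 1 of 4 other libraries. HOXB13 and HOXC6 passed the filter in that fit only through the untreated group. The share called was 35.7%, against 47.4% of all tested genes. For 10 of the 14 genes the CPM ranges of the groups lay apart (71.4%, against 59.1% of all tested genes). The median log2 fold change was 0.32 over the 14 genes and -0.01 over all tested genes.

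**Figure D1:**
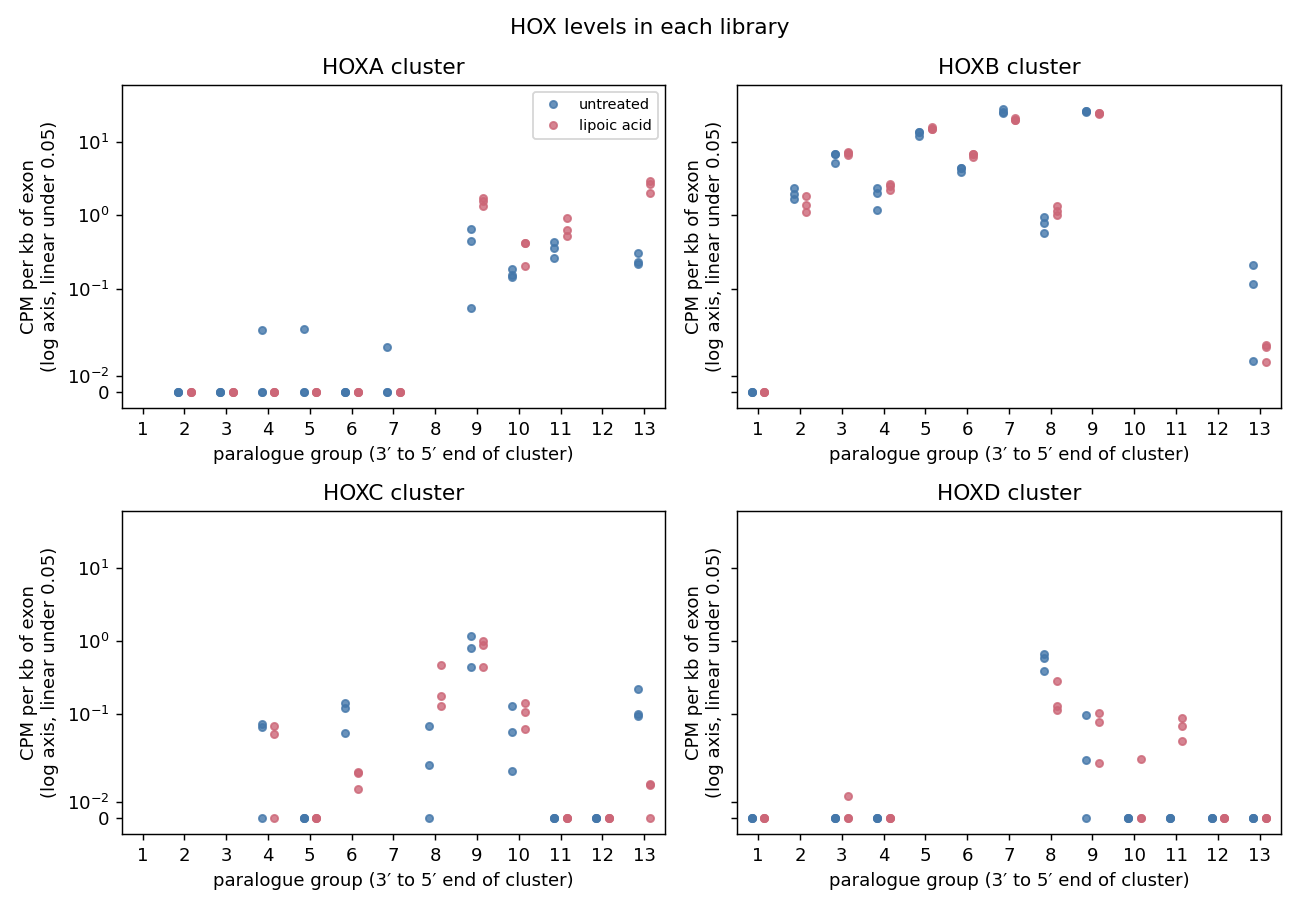
CPM per kilobase of exon in each library (points, 3 untreated and 3 lipoic acid) for the 38 HOX genes, by cluster and paralogue group; the vertical axis is logarithmic and linear under 0.05. HOXB3, HOXB5, HOXB6, HOXB7 and HOXB9 hold the highest places in both groups, HOXA2 to HOXA7 lie at or near 0, and HOXA13 stands at 2.53 in lipoic acid against 0.251 in untreated libraries.

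HOXA13 (chromosome 7, 27193503 to 27200106, minus strand, GRCh38) lies at the 5′ end of its cluster and acts in patterning of distal limb, hindgut and urogenital tract. It rose with lipoic acid. It stood at 1.11, 1.56 and 1.16 CPM in untreated replicates 1 to 3 and at 14.8, 10.3 and 13.6 CPM in lipoic acid replicates 1 to 3. Every lipoic acid library lay far above every untreated one. The edgeR log2 fold change of HOXA13 was 3.33 (95% interval 2.83 to 3.83, adjusted p = 3.69e-06), a 10.1-fold rise. Restricted to untreated replicate 1 and the lipoic acid libraries, whose counts are nearly all even, it was 3.54, with an adjusted p of 5.84e-06 in which the lone untreated library is given the spread of the lipoic acid group.

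The gene next to HOXA13 on the opposite strand is HOTTIP, a long noncoding RNA known for keeping 5′ HOXA genes active. The RefSeq promoter windows of this pair (250 bases before to 50 after the annotated start, GRCh38) are shown because both genes rose and because the windows overlap. Capitals mark the 171 bases that both windows hold, chromosome 7, 27200171 to 27200341, read on opposite strands.
HOXA13, chr7:27200042-27200341, minus strand: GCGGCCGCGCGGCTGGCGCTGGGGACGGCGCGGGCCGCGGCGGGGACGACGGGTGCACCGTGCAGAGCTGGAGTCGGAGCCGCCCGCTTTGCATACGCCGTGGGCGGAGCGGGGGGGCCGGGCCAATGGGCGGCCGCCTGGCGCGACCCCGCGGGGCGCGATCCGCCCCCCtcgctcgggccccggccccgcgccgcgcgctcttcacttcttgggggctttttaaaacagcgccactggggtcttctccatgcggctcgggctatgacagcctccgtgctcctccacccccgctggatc
HOTTIP, chr7:27200171-27200470, plus strand: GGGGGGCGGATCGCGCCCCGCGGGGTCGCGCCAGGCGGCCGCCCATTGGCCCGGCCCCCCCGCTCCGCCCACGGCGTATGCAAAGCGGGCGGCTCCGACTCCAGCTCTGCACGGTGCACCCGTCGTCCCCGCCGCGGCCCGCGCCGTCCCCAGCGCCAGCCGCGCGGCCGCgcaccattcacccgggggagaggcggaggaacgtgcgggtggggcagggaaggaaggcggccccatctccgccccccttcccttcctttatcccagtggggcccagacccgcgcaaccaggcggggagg
The shared stretch holds 1 CCAAT box, the motif of the factor NF-Y, searched on both strands. Of 35116 promoter windows in the table, 34.6% hold a CCAAT, so its presence here is a description. Neither window holds TTTATG, a CDX motif found in 10.6% of windows, nor AGGTCA, a retinoic acid receptor motif found in 13.8%.

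HOTTIP had no count in any untreated library and stood at 0.847, 1.46 and 1.60 CPM in lipoic acid replicates 1 to 3. Against the level that 3 counts over the untreated group allow, 0.0393 CPM with even counts divided by 2, this is at least 33.1-fold higher (edgeR adjusted p = 0.000346). HOTTIP passed the filter on low counts only through the lipoic acid group. Its exons overlap those of HOXA13 over 1.69% of the exon length of HOXA13, and strand use in counting is not given in the sources used here. EVX1, the homeobox gene beyond the 5′ end of HOXA, was too low to be tested, with no count in the untreated group and 0.249, 0.190 and 0.193 CPM in the treated one, which is at least 5.37-fold higher against the same floor.

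HOXA9, a factor of hematopoietic stem and progenitor cells, also rose. Its level was 1.35, 0.166 and 1.99 CPM in untreated replicates 1 to 3 and 4.73, 4.11 and 5.17 CPM in lipoic acid replicates 1 to 3. The groups did not overlap, and untreated replicate 2 lay far below the other untreated libraries. HOXA9 passed the filter through the lipoic acid group, since only 2 of 3 untreated libraries were over its level. The edgeR log2 fold change of HOXA9 was 1.99 (95% interval 0.74 to 3.25, adjusted p = 0.0151), a 3.98-fold rise. It was 1.48 without untreated replicate 2 and 2.61 without untreated replicate 3. HOXA9 was not called without lipoic acid replicate 3 (log2 fold change 1.92, adjusted p = 0.0525). Of its exon length, 15.9% is shared with other genes on the same strand and 13.9% with an antisense gene.

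The promoter window of HOXA9 is shown for contrast with that of HOXA13, with its match to the CDX motif TTTATG, here on the opposite strand, in capitals.
HOXA9, chr7:27165488-27165787, minus strand: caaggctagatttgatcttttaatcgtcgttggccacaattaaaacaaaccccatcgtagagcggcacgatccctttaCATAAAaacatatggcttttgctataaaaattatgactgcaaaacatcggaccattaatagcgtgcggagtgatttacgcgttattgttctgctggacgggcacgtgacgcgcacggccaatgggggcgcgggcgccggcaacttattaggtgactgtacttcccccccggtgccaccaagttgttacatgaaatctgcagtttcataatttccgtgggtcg
The HOXA9 window also holds 1 CCAAT, as do those of HOXA13 and HOTTIP. It is 48% G and C, against 76.3% for HOXA13 and 78% for HOTTIP. A match of 6 letters is not a binding site.

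Between HOXA9 and HOXA13 lie HOXA10 and HOXA11, factors of limb, reproductive tract and blood progenitor development, neither of which passed. HOXA10 stood at 0.677, 0.565 and 0.532 CPM in untreated and at 1.54, 0.760 and 1.55 CPM in lipoic acid replicates 1 to 3. HOXA11 stood at 0.984, 0.599 and 0.831 CPM in untreated and at 2.14, 1.20 and 1.45 CPM in lipoic acid replicates 1 to 3. For both genes every lipoic acid library was above every untreated one. The groups lay apart, in either direction, for 59.1% of all tested genes. The edgeR log2 fold changes were 1.12 for HOXA10 (95% interval 0.14 to 2.09, adjusted p = 0.0576) and 0.99 for HOXA11 (0.10 to 1.87, adjusted p = 0.0634). An antisense gene, HOXA11-AS, covers 31.1% of the exon length of HOXA11.

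**Figure D2:**
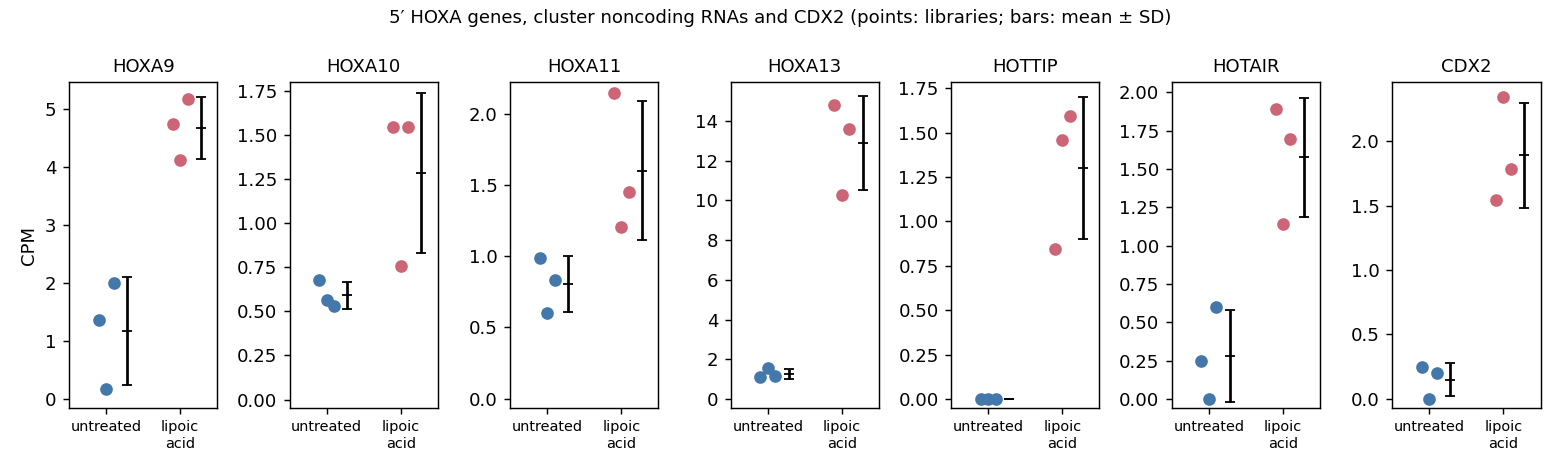
CPM of HOXA9, HOXA10, HOXA11, HOXA13, HOTTIP, HOTAIR and CDX2 in each library (points), with the mean ± SD of 3 libraries beside them; each panel has its own linear axis. The lipoic acid libraries lie above the untreated ones in each panel, and HOXA10 and HOXA11 did not pass the test. HOXA9, HOTTIP, HOTAIR and CDX2 passed the filter only through the lipoic acid group. The groups lay apart, in either direction, for 59.1% of all tested genes.

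The HOXA genes reported here on the 3′ side of HOXA9 were close to silent. HOXA2 to HOXA7, which pattern hindbrain, neck and trunk, had 6 counts in all over the 6 genes and 6 libraries, and no count in any lipoic acid library. HOXA4, HOXA5 and HOXA7 each had 2 of these counts, each in a single untreated library. HOXA5 and HOXA7 are often found in endothelium and blood progenitors, and their levels here lay at or under the floor of 3 counts over a group (0.0393 CPM untreated, 0.0530 CPM lipoic acid).

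HOXB genes, which include regulators of hematopoietic stem cell growth, were expressed from HOXB2 to HOXB9. Per kilobase of exon, HOXB9 and HOXB7 led in untreated libraries with 26.4 ± 0.585 and 26.4 ± 1.75 CPM, and their libraries overlapped. HOXB5 (13.1 ± 1.01), HOXB3 (6.28 ± 1.00) and HOXB6 (4.29 ± 0.288) followed, each clear of its neighbours. HOXB2 and HOXB4 (1.83 ± 0.602) overlapped. In lipoic acid libraries HOXB9 (24.4 ± 0.622) was clear of HOXB7 (20.4 ± 0.535), and HOXB3 (7.10 ± 0.346) overlapped HOXB6 (6.66 ± 0.288). HOXA13, at 0.251 ± 0.0488 CPM per kilobase in untreated libraries, where it overlapped HOXA11 (0.349 ± 0.0842), was at 2.53 ± 0.462 CPM per kilobase with lipoic acid, overlapping HOXB4 (2.46 ± 0.241). The order depends on the length used. Per kilobase of the longest transcript, untreated HOXB7 (29.4 ± 1.95) was clear above HOXB9 (26.4 ± 0.585), HOXB3 (11.1 ± 1.78) overlapped HOXB5 (13.1 ± 1.01), and HOXB2 (2.99 ± 0.523) was clear of HOXB4. On that length HOXB3 (12.6 ± 0.612) was clear of HOXB6 (8.85 ± 0.383) with lipoic acid.

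HOXB6 (chromosome 17, 48595751 to 48604992, minus strand), a factor of trunk mesoderm and early blood progenitors, rose. It stood at 11.6, 11.6 and 10.3 CPM in untreated and at 16.5, 17.7 and 17.9 CPM in lipoic acid replicates 1 to 3, without overlap. Its edgeR log2 fold change was 0.63 (95% interval 0.38 to 0.89, adjusted p = 0.00139). HOXB3 shares 16.6% of its exon length on the same strand and HOXB-AS3 16.3% on the other.

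HOXB7 (chromosome 17, 48607227 to 48633572, minus strand), a neighbour of HOXB6 and a factor of endothelial and progenitor growth, fell. It stood at 39.7, 43.3 and 38.1 CPM in untreated and at 30.6, 31.0 and 32.1 CPM in lipoic acid replicates 1 to 3, again without overlap. Its edgeR log2 fold change was -0.37 (95% interval -0.54 to -0.20, adjusted p = 0.00316). The 2 called genes of this cluster moved in opposite directions, 1.55-fold up and 1.29-fold down.

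The other 6 tested HOXB genes did not pass. HOXB9, the highest of them, stood at 66.5, 68.8 and 69.4 CPM in untreated and 61.2, 64.4 and 63.3 CPM in lipoic acid replicates 1 to 3 (edgeR log2 fold change -0.12, 95% interval -0.25 to 0.02, adjusted p = 0.150). HOXB4, known for expanding blood stem cells when supplied in excess, stood at 6.89 ± 2.26 and 9.23 ± 0.906 CPM (log2 fold change 0.42, 95% interval -0.10 to 0.94, adjusted p = 0.166). HOXB5, a marker of long-term stem cells in mouse marrow, stood at 26.7 ± 2.07 and 31.3 ± 1.15 CPM (log2 fold change 0.23, adjusted p = 0.0515), and was called in 10 of 19 alternative settings. HOXB2, HOXB3 and HOXB8 had adjusted p of 0.154, 0.208 and 0.131. At the ends of the cluster, HOXB1 had no count in any library and HOXB13 was untested at 0.401 ± 0.336 and 0.0865 ± 0.0202 CPM.

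**Figure D3:**
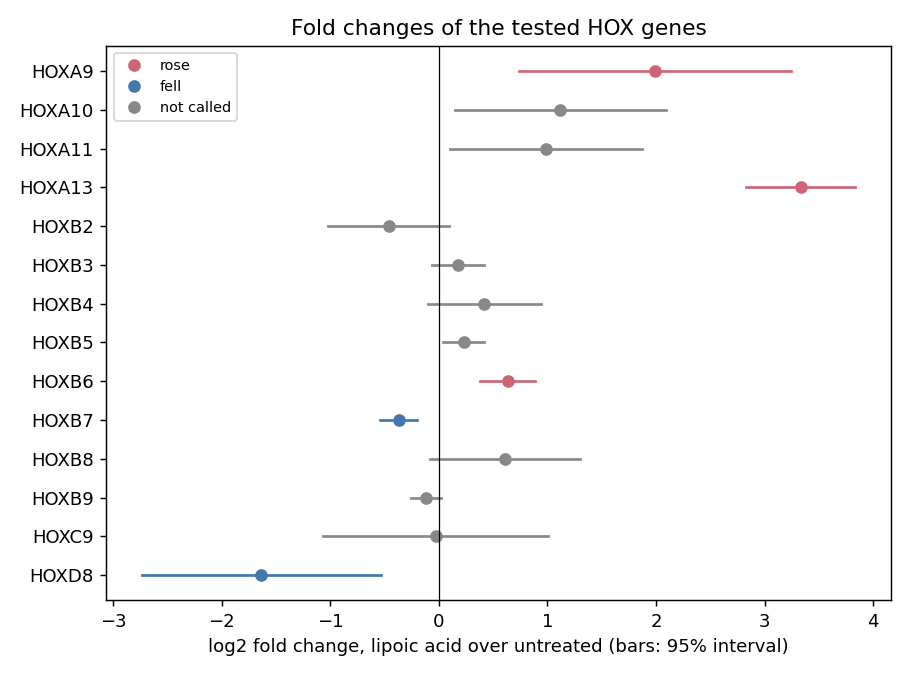
Log2 fold change of lipoic acid over untreated for the 14 tested HOX genes (points) with 95% intervals (bars), in cluster order. HOXA13 lies at 3.33, HOXA9 and HOXB6 are the other rises, and HOXB7 and HOXD8 fell.

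HOXC and HOXD genes, which pattern trunk, limb and tail, were low throughout. HOXD8 (chromosome 2, 176129694 to 176132695, plus strand), a factor of trunk mesoderm and endothelium, was the one member of its cluster with enough counts, at 1.54, 1.03 and 1.73 CPM in untreated and 0.299, 0.760 and 0.338 CPM in lipoic acid replicates 1 to 3. The groups did not overlap. Its edgeR log2 fold change was -1.64 (95% interval -2.74 to -0.54, adjusted p = 0.0205). HOXD8 passed the filter through the untreated group, since only 2 of 3 lipoic acid libraries were over its level. The call of HOXD8 was lost when untreated replicates 2 and 3 were both left out (adjusted p = 0.0813), without untreated replicates 1 (0.0551) or 3 (0.0841) and without lipoic acid replicates 1 (0.0816) or 3 (0.0875), each with a log2 fold change between -1.73 and -1.39.

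HOXC9, the highest HOXC gene, stood at 0.738, 1.96 and 1.33 CPM in untreated and 0.747, 1.71 and 1.50 CPM in lipoic acid replicates 1 to 3. The groups overlapped, and the edgeR log2 fold change of -0.03 had a 95% interval of -1.06 to 1.01 (adjusted p = 0.966). Of the 24 untested members, 4 (16.7%) had groups that did not overlap. The share over all untested genes is not given here, so this count is a description only. HOXC6 had 0.376 ± 0.157 CPM without and 0.0865 ± 0.0202 CPM with lipoic acid, and HOXC13 had 0.337 ± 0.169 and 0.0327 ± 0.0283 CPM. HOXC8 stood at 0.0648 ± 0.0666 and 0.491 ± 0.345 CPM. HOXD11 went from no count to 0.145 ± 0.0451 CPM, which is at least 3.69-fold higher against the floor over the untreated group. HOXD9 was the highest uncalled HOXD gene per kilobase. It stood at 0.185, 0 and 0.0665 CPM in untreated replicates 1 to 3 (0.0837 ± 0.0935). In lipoic acid replicates 1 to 3 it stood at 0.149, 0.0633 and 0.193 CPM (0.135 ± 0.0662), and the groups overlapped. The highest level of an untested member in any library was 0.886 CPM.

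Other genes in and beside the clusters, most of them noncoding but with the protein-coding PRAC1 and PRAC2 among them, were low. Of 29 in the table, 14 had no count, 6 were tested, 2 rose (HOTTIP and HOTAIR) and 0 fell. The share called was 33.3%, against 47.4% of all tested genes. HOTAIR, a long noncoding RNA of the HOXC cluster known for its ties to Polycomb repression, stood at 0.246, 0 and 0.598 CPM in untreated and at 1.89, 1.14 and 1.69 CPM in lipoic acid replicates 1 to 3. Its edgeR log2 fold change was 2.47 (adjusted p = 0.0245), and it was not called without untreated replicate 1 (0.0646) or without lipoic acid replicates 1 (0.0885) or 3 (0.0791). Without untreated replicate 3 its log2 fold change was 3.62. HOTAIR too passed the filter on low counts only through the lipoic acid group. HOTAIRM1, at the 3′ end of HOXA, stood at 0.350 ± 0.174 and 0.708 ± 0.288 CPM and did not pass (adjusted p = 0.174). The miRNA genes of the clusters were at 0 or at 1 count, and polyA libraries do not measure mature miRNAs.

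Among known upstream factors, CDX2, a caudal-type homeobox factor that activates HOX genes of the trunk and tail, rose. It stood at 0.246, 0 and 0.199 CPM in untreated and at 1.54, 2.34 and 1.79 CPM in lipoic acid replicates 1 to 3, and it passed the filter only through the lipoic acid group. The edgeR log2 fold change of CDX2 was 3.62 (95% interval 2.09 to 5.16, adjusted p = 0.00196), and 2.92 when untreated replicates 2 and 3 were both left out. It was the 1 tested gene of 6 CDX and ParaHox genes, and CDX4, a factor of HOX activation in early blood mesoderm, had no count.

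Retinoic acid, a vitamin A derivative, activates 3′ HOX genes, and the genes of its synthesis and breakdown moved in both directions. Among 13 with enough counts there were 2 rises and 6 falls, and 5 did not pass (61.5% called, against 47.4% of all tested genes). ALDH1A1, a retinaldehyde dehydrogenase, rose from 0.0665 ± 0.0665 to 7.17 ± 1.87 CPM (edgeR adjusted p = 9.90e-06). ALDH1A1 and CYP26A1, the 2 rises, passed the filter on low counts only through the lipoic acid group. The other enzymes of this family fell, ALDH1A3 from 8.82 ± 1.31 to 2.99 ± 0.215 CPM and ALDH1A2 from 6.02 ± 1.49 to 3.09 ± 0.832 CPM, the latter not called when untreated replicates 2 and 3 were both left out (adjusted p = 0.166). CYP26A1, which degrades retinoic acid, went from no count in any untreated library to 0.723 ± 0.361 CPM, which is at least 18.4-fold higher.

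TALE genes encode homeodomain proteins, several of which bind DNA together with HOX factors. Of 9 TALE genes with enough counts, 3 rose and 2 fell (55.6% called, against 47.4% of all tested genes). MEIS2, a relative of MEIS1, rose from 80.6 ± 6.21 to 109.5 ± 1.17 CPM (edgeR log2 fold change 0.44, adjusted p = 0.000685). PKNOX2 and TGIF2 fell, by 1.54 and 0.49 on the log2 scale. TGIF1, a TALE repressor, rose from 63.4 ± 6.55 to 80.2 ± 4.82 CPM, but was not called with the trend in GC content and length taken out (edgeR adjusted p = 0.212). MEIS1, a partner of HOXA9 in blood progenitors, did not pass at 102 ± 1.80 and 92.2 ± 4.84 CPM (adjusted p = 0.0865), but was called lower with a trend in GC content and length removed (adjusted p = 0.00667).

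Chromatin regulators of the HOX clusters were called at 38.1% (trithorax and MLL), 56.5% (Polycomb) and 33.3% (CTCF and cohesin), against 47.4% of all genes. Of 21 trithorax and MLL genes, which keep HOX genes active, 7 rose and 1 fell, among them KDM6A, an eraser of the repressive H3K27 methyl mark, from 21.3 ± 0.420 to 38.9 ± 1.42 CPM. ASH2L, a core subunit of these methyltransferases, CXXC1, which binds CpG islands, and AFF1, of an elongation complex, rose by less (log2 fold changes 0.39, 0.38 and 0.33). CXXC1 was not called when untreated replicates 2 and 3 were both left out (adjusted p = 0.108), nor AFF1 with the GC content and length trend taken out (0.327). KMT2A itself stood at 49.2 ± 5.97 and 51.1 ± 2.89 CPM (edgeR adjusted p = 0.659), with a sign that changed between settings. Of 23 tested Polycomb genes, which repress HOX genes, 6 rose and 7 fell. EZH2, the methyltransferase that writes that mark, rose from 18.5 ± 1.40 to 31.0 ± 2.75 CPM and BMI1 from 69.9 ± 7.31 to 112 ± 5.04 CPM, and CBX6 had a log2 fold change of 0.63. RNF2 fell from 42.2 ± 6.57 to 18.8 ± 0.620 CPM and CBX2 from 80.8 ± 2.48 to 51.9 ± 0.380 CPM. Of 9 CTCF and cohesin genes, which fold the clusters into domains, 3 rose (RAD21, SMC3 and WAPL) and 0 fell.

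Genes that flank the clusters were called at 52.6% of 19 tested, 8 rising and 2 falling, against 47.4% of all tested genes. CBX5 near HOXC rose (log2 fold change 0.34), but was not called with the trend in GC content and length taken out (adjusted p = 0.341). ATF2 on the side of HOXD rose from 25.6 ± 0.877 to 38.4 ± 1.10 CPM and ATF7 near HOXC fell from 152.9 ± 7.45 to 116 ± 1.51 CPM. NFE2 near HOXC, a factor of the megakaryocyte and erythroid lineages, went from no count in any untreated library to 2.08 ± 0.888 CPM, which is at least 53.0-fold higher. Of 4 tested blood markers, the megakaryocyte genes PF4 and ITGA2B rose, from 0.415 ± 0.275 to 3.74 ± 0.733 CPM and from 0.660 ± 0.689 to 2.47 ± 0.285 CPM, and RAC2 and LAPTM5 fell. The summed level of the list was 357 to 383 CPM in untreated and 294 to 326 CPM in lipoic acid libraries, PTPRC, HBG1 and HBE1 had no count, and the part of such cells in the level of NFE2 was not tested. NFE2, PF4 and ITGA2B passed the filter on low counts only through the lipoic acid group.

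**Figure D4:**
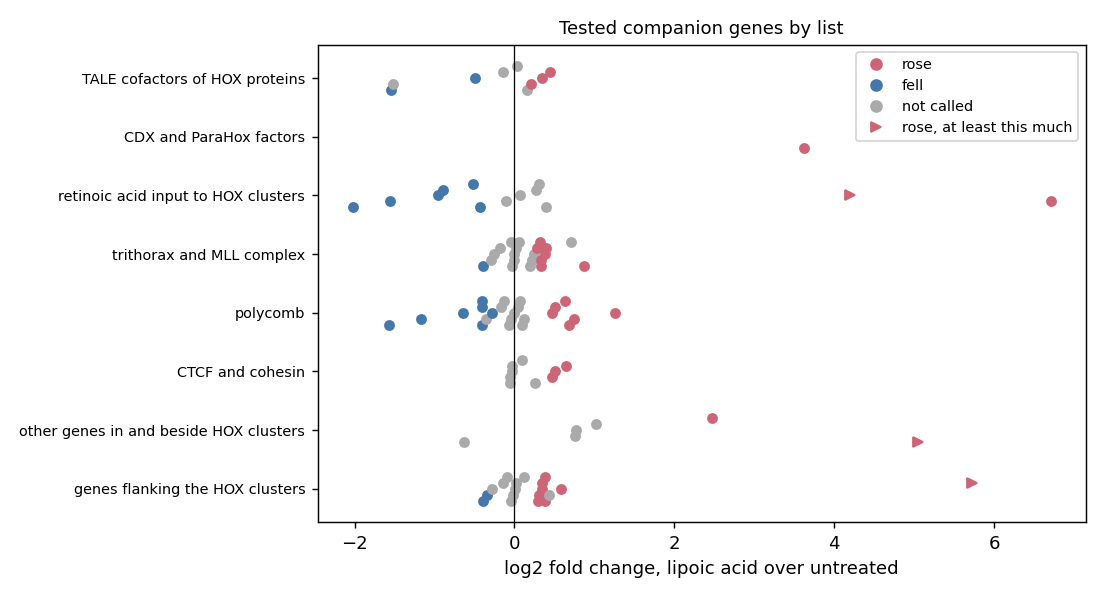
Log2 fold change of the tested genes in each companion list (points; 3 untreated and 3 lipoic acid libraries), with genes at 0 in the untreated group drawn as triangles at their lower bound. HOTTIP, NFE2, CYP26A1, ALDH1A1, CDX2 and HOTAIR lie above 2.

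Markers of other cell types also differed between the groups, in both directions. The shares called were 88.9% (endoderm and hepatic), 83.3% (epithelial), 54.5% (mesenchymal), 100% (arterial, and the blood markers above) and 66.7% (pluripotency). They were 71.4% (pan-endothelial), 75% (cardiac) and 75% (neural), against 47.4% of all tested genes. Among endoderm and hepatic markers, 8 of the 9 with enough counts rose, and their summed level was 26.2 to 38.6 CPM in untreated and 145 to 218 CPM in lipoic acid libraries, with ALB at 0.0205 and 0.260 CPM. Of 6 tested epithelial markers 5 rose and 0 fell, with sums of 226 to 249 and 409 to 474 CPM. FOXA1 and FOXA2 among the endoderm markers, and CDH1 and ESRP1 among the epithelial ones, passed the filter only through the lipoic acid group. CDX2 and HOXA13 are also genes of hindgut epithelium. Mesenchymal markers, of cells that often carry HOX genes, fell for 6 of 11 and rose for none, with overlapping sums of 1932 to 2564 and 1460 to 2004 CPM. All 7 arterial markers fell, from sums of 3118 to 3356 CPM to sums of 1121 to 1195 CPM. Of pluripotency markers, LIN28A and ZFP42 rose among 3 tested (sums of 79.4 to 83.8 and 89.4 to 91.3 CPM), while POU5F1 and SOX2 had no count. Pan-endothelial markers gave 1 rise and 4 falls among 7, cardiac markers 2 rises and 1 fall among 4, and neural markers 1 rise and 2 falls among 4. The part of these cells in the levels of HOXA13, HOXA9, CDX2 and HOXD8 was not tested.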

How the data were processed

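The table holds whole-number counts, 1 row per gene symbol, for 3 untreated and 3 lipoic acid libraries. The authors deposited these counts unnormalised. The submitters' processing notes name HISAT2, featureCounts, DESeq2 and the build hg38, without versions. Options, annotation, strand setting and the treatment of reads with several alignments are not given in the sources used here. The cDNA was amplified and no molecular barcodes are mentioned, so floors cover counting error only.

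The software was DESeq2 1.42.0, edgeR 4.0.16 and limma 3.58.1 in R 4.3.3. The filter was filterByExpr (about 0.315 CPM in 3 libraries) and the scaling TMM. The edgeR quasi-likelihood test, with group as the only term, was adjusted over all 13780 kept genes, and the tools were tested on simulated data. Members and lists were chosen with earlier results of these data known. By rule, values per library are given for called members and the highest uncalled member of each cluster. Companion lists name up to 4 called genes by lowest p, and MEIS1, KMT2A, CDX2 and EZH2. Other genes given with values were named after these were seen. A further HOX gene that fits the naming rule, and a companion gene, are not reported here. The HOX gene was left out with its values known. Every count, sum, share and order of HOX genes, and the counts of the companion lists, leave them out. Positions, lengths and overlaps came from GENCODE 29 (GRCh38), with 99.36% of symbols found. Promoter windows came from RefSeq (GRCh38.p14), which held 20 of the 38 members.

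Alternatives were other scaling, filters, tests and thresholds, even counts divided by 2, the 4 libraries of even counts, a GC content and length trend, the replicate block, removal of mitochondrial genes and omission of each library.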

Additional observations from a re-analysis of the deposited data

How the results depend on the processing

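HOXA13, HOXB6 and HOXB7 kept their direction and their call under all 19 alternatives tried, with log2 fold changes of 3.18 to 3.54, 0.58 to 0.68 and -0.41 to -0.32. The edgeR test called 3 HOX genes higher and 2 lower. With no filter 5 were higher (HOXC8 and HOXD11 added, with HOXC13 added to the lower ones), with a filter of 1 CPM in a whole group 5 (HOXA11 and HOXB5 added) and at an adjusted p under 0.1 6. Leaving out each library gave 2 to 4 higher and 1 to 4 lower calls. Without untreated replicate 2, 4 were lower, with HOXB13 and HOXC6 added, both kept by the filter only through the untreated group. Without untreated replicates 1 or 3 or lipoic acid replicates 1 or 3, 1 was lower, HOXD8 being lost. HOXB13 had a log2 fold change of -3.03 in the libraries of even counts. HOXC8 was called higher without untreated replicate 3 (edgeR adjusted p = 0.0382) or lipoic acid replicate 1 (0.0401). In those fits the filter kept HOXC8 only through the lipoic acid group. HOXA10 was called higher without lipoic acid replicate 2 (0.0258) and with even counts divided by 2 (0.0464). HOXC9, not called, changed sign, with log2 fold changes of 0.83 in the libraries of even counts, 0.045 after removal of the trend in GC content and length, 0.063 with that trend and the replicate block, and -0.31 to 0.35 when each library was left out. KMT2A, also not called, turned to -0.084, -0.14 and -0.14 under those settings and ran from -0.038 to 0.14 when each library was left out. The causes were not tested. Per kilobase of the longest transcript in place of all exons, untreated HOXB3 and HOXB2 moved most, HOXB3 from 6.28 to 11.1 CPM and HOXB2 to 2.99 CPM. HOXA10, HOXB6, HOXB7 and HOXD8 stood at 0.233, 5.70, 29.4 and 0.747 CPM. Same-numbered libraries correlated at 0.0598, 0.0602 and 0.0783 in their deviations from the group means, each best with its own number. The labels do not say whether the numbers pair samples, so the main edgeR test had no replicate block. With the replicate block 4 HOX genes were higher and 1 lower, HOXD8 being lost (edgeR adjusted p = 0.0530). The calls were the same with the block and removal of the GC content and length trend together. With that trend alone taken out, HOXD8 was still called lower (edgeR adjusted p = 0.0310). Low counts kept 24 of the 38 HOX genes out of the test, 11 of them without a count.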
